A study of Mus musculus with 7 samples.

Results

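Nuclear receptor genes were examined in brown fat from male C57BL/6J pups aged 3 days. The pups were wild type or lacked Gyk, which encodes glycerol kinase (knockout, KO). The members were a list of 43 receptor genes, chosen by name, without the circadian clock receptors and the glucocorticoid receptor. Of these, 41 had at least 1 probe set paired with their symbol alone, 106 probe sets in all among the 45037 of the array that are not controls. Nr1h2 and Nr2e3 had none, so they were not analysed here. Each gene was read by its brightest probe set, by the mean over all arrays. For 31 of the 41 that probe set passed the filter on dim signals and was tested, beside 13102 tested genes in all. The samples were 4 KO (replicates 1 to 4) and 3 wild type (replicates 1, 3 and 4), 1 array each. The series compares KO with wild type as its control, and the labels give no further allele, agent or pooling. They do not say whether the replicates were separate animals.

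Nuclear receptors are transcription factors switched by small fat-soluble ligands such as thyroid hormone, retinoic acid, fatty acids, oxysterols and steroids. Many bind DNA as heterodimers with a retinoid X receptor (RXR), at repeats of the hexamer AGGTCA, while others act as monomers or homodimers, and several orphan members have no known natural ligand. In brown fat, PPARγ drives fat cell differentiation, PPARα and the oestrogen-related receptors (ERRs) support fatty acid oxidation and mitochondria, and thyroid hormone receptors support heat production.

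The hexamer was looked up, as AGGTCA or its reverse complement TGACCT, in the 250 bases before each annotated start of the RefSeq table (GRCm38.p6). It was present in 10 of 61 such windows of 40 members, 16.4%, against 14% of the 32851 windows of all genes. The stretch of Rxra is shown because 1 of its windows holds 2 matches, and because Rxra passed the test when 1 array was left out. That test is described further on. Of all windows, 1.36% held 2 or more matches, and a window of Nr6a1 held 2 as well. The stretch covers the 100 bases before 1 of the annotated starts of Rxra, chr2:27709192-27709291 on the plus strand, with the matches in capitals.
Rxra: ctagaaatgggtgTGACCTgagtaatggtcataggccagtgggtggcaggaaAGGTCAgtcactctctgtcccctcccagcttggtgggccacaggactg
Expression arrays measure transcripts, so these letters describe the window and say nothing of binding there.

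The deposited values were signal intensities on a linear scale, and array medians lay between 131.5 and 154. With 7 arrays, precision is limited throughout. The targeted gene could not be checked, since 0 probe sets are paired with it. The array labelled KO replicate 2 stood apart: on the first principal component (35.3% of the variance) it scored -13.8, the wild-type arrays -33.3 to -23 and the other KO arrays 33.4 to 35.7. Its closest array was wild-type replicate 1 (correlation 0.975). On the second component KO replicate 2 (-24.5), wild-type replicate 1 (-24.2) and KO replicate 1 (-21.8) stood apart from the other arrays (12.5 to 23.6). Those low-scoring arrays make up the first deposit block described below. Results for receptors are therefore given with and without KO replicate 2 where the call differs. That array was singled out on these same values, for lying near wild type, so leaving it out tends to widen differences. Without it 1986 probe sets passed the test described below, against 431 with all arrays and 7 to 40 without any other 1 array. Calls in that fit are therefore no separate support. They stand beside 8.43% of all genes (3.4% higher, 5.02% lower). Of 13 defining markers of brown fat cells, 13 passed the filter, and Ucp1 read 30978 in wild type and 31505 in KO on average.

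No receptor passed the test of KO against wild type. On a log2 scale, 0 of 31 members had an adjusted p under 0.05 (limma, Benjamini-Hochberg), against 1.85% of all tested genes (1.14% higher and 0.71% lower in KO), and 0 of their 68 tested probe sets, against 1.59% of all probe sets. At an unadjusted p under 0.05 there were 7 members, 5 higher and 2 lower in KO, beside 18.2% of all genes. The log2 difference of KO minus wild type ranged from -1.06 to 1.21 over the members, with a median of 0.01 (all genes: -0.01), and 16 were higher and 15 lower by sign. Without the array labelled KO replicate 2, Rxra rose and Esr1 and Esrrg fell, so 3 of 31 (9.68%) passed, near the 8.43% of all genes (3.4% higher, 5.02% lower). With the deposit block as a covariate, 0 of 31 passed, against 2.65% of all genes. The block was inferred from runs of sample numbers alone, with wild-type replicate 1 and KO replicates 1 and 2 in the first.

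**Figure D1:**
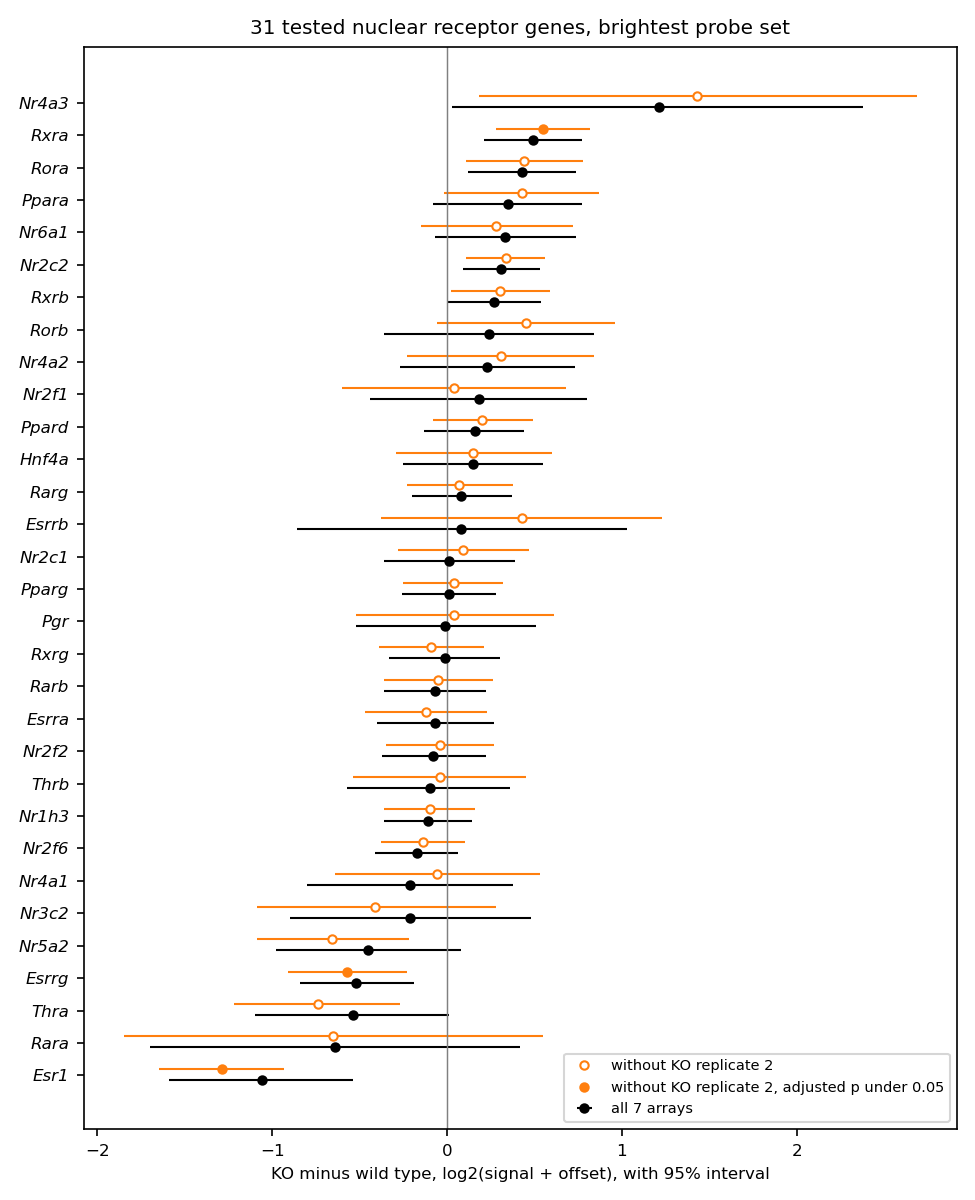
Difference of KO minus wild type on the log2(signal + offset) scale with its 95% interval for the 31 tested receptor genes, with all 7 arrays (black) and without KO replicate 2 (orange, filled where the adjusted p is under 0.05). The members scatter on either side of 0, and the filled points are Esr1, Esrrg and Rxra.

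Of the 31 tested members, 6 had KO and wild-type signals that did not overlap (19.4%), beside 16.7% of all tested genes (8.33% higher and 8.37% lower in KO). They were Rxra, Rora, Nr2c2 and Nr6a1, all higher in KO, and Esr1 and Esrrg, lower in KO.

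The receptor closest to the threshold was Esr1, oestrogen receptor α. It read 1162, 1312 and 1052 in wild-type replicates 1, 3 and 4, and 365, 898, 510.2 and 522 in KO replicates 1 to 4. Every KO array lay below every wild-type array, with KO replicate 2 nearest to them. The mean was 573.9 ± 228 (SD, n = 4) in KO against 1175.5 ± 130 (n = 3) in wild type, a 2.09-fold difference (log2 -1.06 ± 0.24, SE, adjusted p = 0.0558). Without KO replicate 2 the log2 difference was -1.29 and Esr1 passed (adjusted p = 0.00195). It was -1.14 in the second deposit block (4 arrays, adjusted p = 0.018), a fit added after seeing the data. In the first block (3 arrays, 1 of them wild type) it was -0.98. Leaving out any 1 array other than KO replicate 2 gave an adjusted p of 0.108 to 0.183. It was 0.1 with no filter and 0.131 with no trend. The other 2 probe sets of Esr1 were also lower in KO (log2 -0.49 and -0.69) and did not pass (adjusted p = 0.296 and 0.401). Markers of other cells were set beside it. The 10 fibroblast and preadipocyte markers, none at 0, summed to 46732, 74097, 67307 and 72978 signal units in KO replicates 1 to 4 and to 73173 to 77896 in wild type, so KO replicate 1 alone lay far below. Among them, 0 of 10 passed with all arrays, and Lum and Fap fell without KO replicate 2. Lum, a matrix proteoglycan, read 862, 2560.4, 1456 and 1334 in KO, lowest in KO replicate 1 and highest in KO replicate 2 as Esr1 did. The 7 measured white fat markers summed to 7820.3 to 12068 in KO, KO replicate 2 being the highest, and to 11403 to 12522 in wild type, and 0 of 6 tested passed with all arrays. Without KO replicate 2, 3 of the 6 fell, Hoxc8 (log2 -1.24, adjusted p = 0.00997), Lep (-1.12, adjusted p = 0.0307) and Retn (-0.67, adjusted p = 0.00471). The rest of the 6 passed in neither fit, and the median of the 6 with all arrays was -0.13. Of all genes, 5.02% fell without KO replicate 2. The part of these markers in the Esr1 difference was not tested. In whole tissue, fewer cells of a type and less RNA per cell cannot be told apart.

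The other steroid receptors did not pass either. Pgr, the progesterone receptor, averaged 149.2 ± 39.6 in KO and 149.3 ± 36 in wild type (log2 -0.01, 95% interval -0.52 to 0.51). Nr3c2, the mineralocorticoid receptor, read 102 to 107 in wild type and 38.1 to 147 in KO (log2 -0.21 ± 0.31). Esr2, oestrogen receptor β, was under the filter, with signals of 14 to 72.2.

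Rxra, the RXR that pairs with many receptors of this family, read 821, 769 and 937 in wild type and 1330.1, 1048, 1164 and 1239 in KO. The KO arrays were all higher, and KO replicate 2 was the lowest of them. The difference was 1.4-fold (log2 0.49 ± 0.13, adjusted p = 0.085), and Rxra passed without KO replicate 2 (log2 0.55, adjusted p = 0.0256). A further probe set lay in the same direction (log2 0.40, adjusted p = 0.36). Rxrb, the widely expressed relative, read 1992, 1899 and 2289 in wild type and 2909, 2328, 2532 and 2230.4 in KO. These groups overlapped, and the log2 difference of 0.27 ± 0.12 did not pass (adjusted p = 0.299). Rxrg, the form of more limited tissues, read 1272, 1116 and 961 in wild type and 965, 1293, 1145 and 1018 in KO. Its interval ran from -0.33 to 0.30 around a log2 difference of -0.01.

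**Figure D2:**
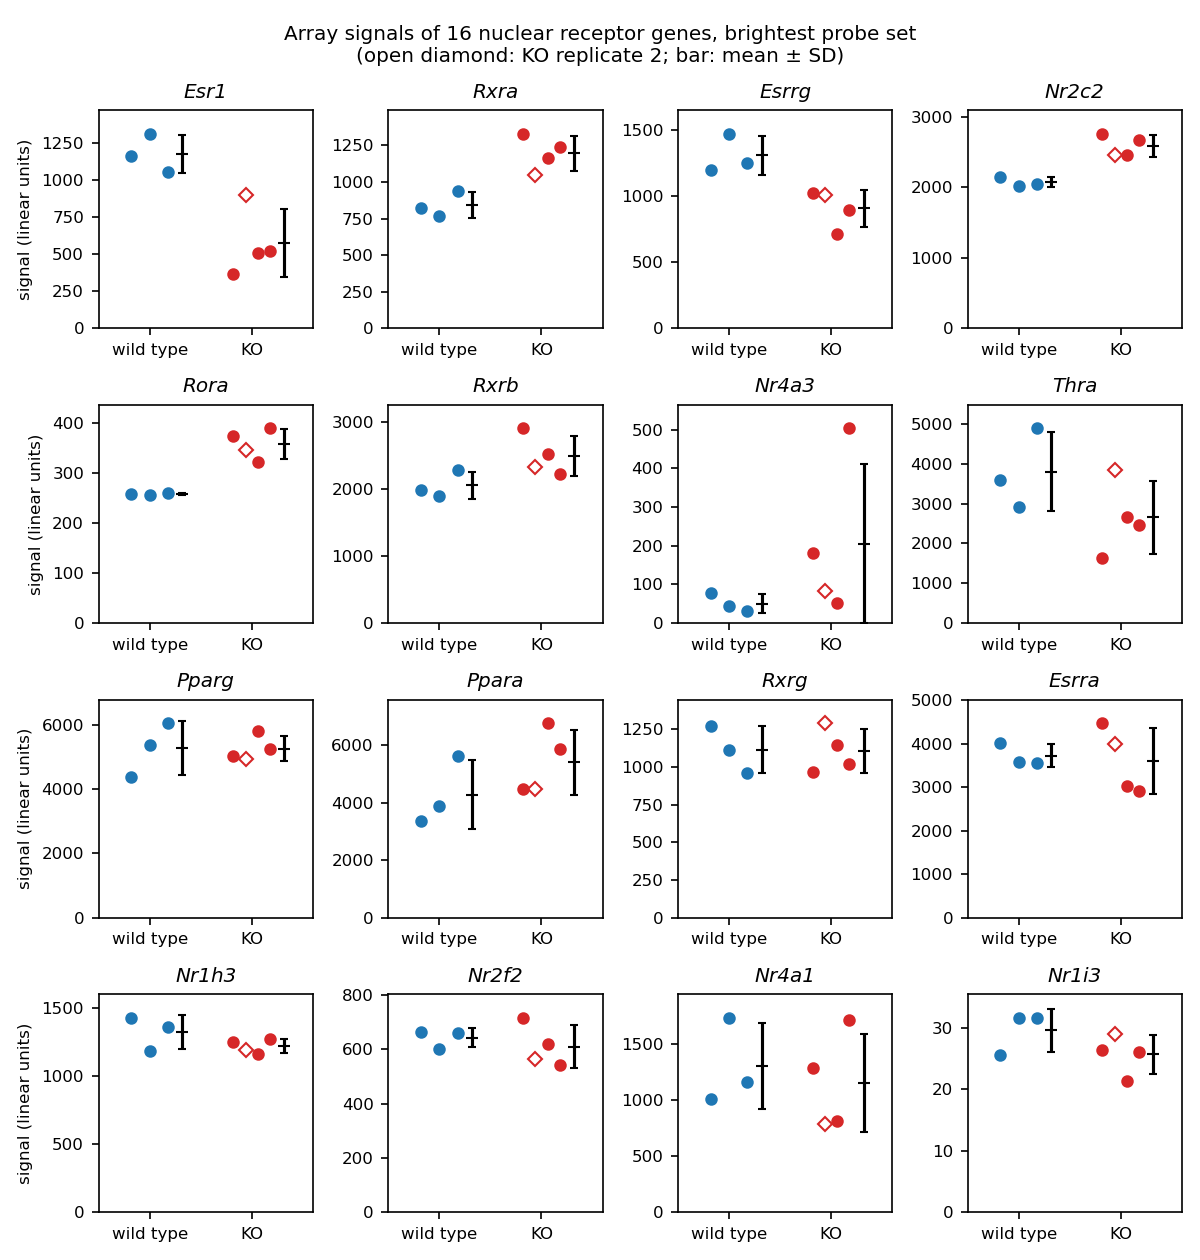
Signal of the brightest probe set in each array (linear units, each axis from 0) for 16 receptor genes, wild type in blue and KO in red, with mean and SD beside the points and KO replicate 2 as an open diamond. In Esr1 and Esrrg each KO point lies below the wild-type points, in Rxra, Nr2c2 and Rora above them, and in the other 11 panels the groups overlap.

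The PPARs are activated by fatty acids and their derivatives. Pparg, the master regulator of fat cells, read 4391, 5358 and 6058 in wild type and 5027, 4944, 5812 and 5264 in KO. The means were 5269.0 ± 837 and 5261.8 ± 391, and the log2 difference was 0.01 with an interval of -0.26 to 0.28. Ppara, which drives fatty acid oxidation, read 3354, 3879.7 and 5631 in wild type and 4494, 4484, 6782 and 5890.5 in KO. The groups overlapped, its 3 probe sets differed by 0.12 to 0.35, and none passed (brightest: adjusted p = 0.416). Ppard, the form found in most tissues, read 458, 472 and 528 in wild type and 585, 489.7, 574 and 534 in KO (log2 0.16 ± 0.13). Among 22 tested PPAR target genes 0 rose and 0 fell (median 0.06). Without KO replicate 2, where 3.4% of all genes rose and 5.02% fell, 3 targets rose and 1 fell. Those that rose then were Angptl4, a lipase inhibitor (log2 0.84, adjusted p = 0.0104), Ehhadh of peroxisomal oxidation (1.30, adjusted p = 0.0153) and the thioesterase gene Acot1 (1.99-fold, adjusted p = 0.0234). The fatty acid binding protein gene Fabp3 fell then (-1.20, adjusted p = 0.0179), and also with the deposit block (-1.13, adjusted p = 0.0168). Fabp4 rose on a dimmer probe set (log2 0.48 with all arrays, adjusted p = 0.0403).

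The ERRs are orphan receptors that work with PGC-1 coactivators on mitochondrial genes. Esrrg read 1195, 1471 and 1252 in wild type and 1019, 1006, 714 and 892 in KO, so the groups did not overlap. It was 1.43-fold lower in KO (907.6 ± 141 against 1306.0 ± 145; log2 -0.52 ± 0.15, adjusted p = 0.108) and passed without KO replicate 2 (-0.57, adjusted p = 0.0492). The difference was -0.74 in the second deposit block and -0.23 in the first. Its other 2 probe sets differed less (-0.10 and -0.22). Esrra read 4028, 3581 and 3565 in wild type and 4481, 3991, 3035 and 2928 in KO. KO replicate 1 was above all wild-type arrays and KO replicates 3 and 4 below them all, and the log2 difference was -0.07 ± 0.15. Esrrb scattered from 95.1 to 424 within KO (log2 0.08 ± 0.43). Of 19 tested ERR target genes 0 rose and 0 fell (median 0.05). Mfn2, a mitochondrial fusion gene, fell without KO replicate 2 (log2 -0.42, adjusted p = 0.0349), and its value with all arrays was -0.35 (adjusted p = 0.158).

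Thyroid hormone receptors bind T3. The brightest probe set of Thra read 3594, 2928 and 4893 in wild type and 1645, 3849.5, 2671 and 2459.5 in KO. KO replicate 2 lay within the wild-type range and the other KO arrays below it, and the log2 difference was -0.54 ± 0.25 (adjusted p = 0.309). The other 2 probe sets of Thra pointed the other way (0.14 and 0.21, adjusted p = 0.656 and 0.462), so no direction can be given for the gene. Thra overlaps the clock receptor gene Nr1d1 in the RefSeq table. Thrb read 182, 251 and 266 in wild type and 264, 182, 164 and 255 in KO (log2 -0.10 ± 0.21). Of 11 tested thyroid hormone target genes 0 rose and 0 fell by their brightest probe set (median 0.02). Klf9, a Krüppel-like factor gene also induced by glucocorticoids, rose on another probe set (log2 0.94, adjusted p = 0.048). Its brightest was at 0.83 (adjusted p = 0.0783) and rose without KO replicate 2 (1.05, adjusted p = 0.000808). Of 4 tested genes of thyroid hormone supply 0 rose and 0 fell (median -0.28). They include Ttr, a hormone carrier made by the liver, which read 213 to 5931 across the arrays.

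Retinoic acid receptors showed no difference past the threshold. Rarg read 886 to 1129.7 in wild type and 928 to 1163 in KO (log2 0.08 ± 0.13), and Rarb 418 to 507 and 418 to 469 (-0.07 ± 0.13). Rara was dim, at 87.4 to 193 in wild type and 9 to 154 in KO (-0.64 ± 0.48). Of 6 tested target genes 0 rose and 0 fell (median -0.04), and Dhrs3, a retinal reductase gene, was at -0.40 (adjusted p = 0.173). Of 11 tested genes of retinoid supply and breakdown, 1 fell and 0 rose (median -0.19). This was Rbp4, the plasma carrier of retinol, which read 9114, 6400.3 and 10228 in wild type and 3688, 3930.2, 2700.4 and 2558 in KO. Every KO array was below every wild-type array, a 2.65-fold fall (log2 -1.40 ± 0.19, adjusted p = 0.0189). The liver makes Rbp4 as well, and the summed liver markers described with Nr0b2 overlapped between the groups; their part in this fall was not tested. Without KO replicate 2, the aldehyde dehydrogenase gene Aldh1a7 (-1.02, adjusted p = 0.00929) and Fabp5 (-0.54, adjusted p = 0.0234) fell as well and Retsat, a retinol saturase, rose (0.54, adjusted p = 0.0265). In that fit 3.4% of all genes rose and 5.02% fell.

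Among receptors for sterols, bile acids, vitamin D and foreign compounds, only Nr1h3 passed the filter. Nr1h3 encodes the oxysterol receptor LXRα. It read 1428, 1182 and 1357 in wild type and 1253, 1189, 1163 and 1270.0 in KO, a log2 difference of -0.11 with an interval of -0.36 to 0.14. Of 11 tested LXR target genes, Mylip rose and Pltp fell (median 0.04). Mylip, which marks the LDL receptor for breakdown, read 1866, 1844 and 2125 in wild type and 4259.6, 2508, 3563 and 4352 in KO (log2 0.88 ± 0.18, adjusted p = 0.0403). Pltp, the phospholipid transfer protein, read 7808, 7360.5 and 9851 against 5342, 5746, 4676 and 5879 (log2 -0.62 ± 0.13, adjusted p = 0.0446). In each the groups did not overlap. Smpdl3a, a phosphodiesterase gene, was at 0.46 (adjusted p = 0.089) and rose without KO replicate 2 (0.53, adjusted p = 0.0196) and with the deposit block (0.49, adjusted p = 0.0497). Cyp27a1, which makes an oxysterol, was at log2 0.75 (adjusted p = 0.0521) among 4 tested genes of oxysterol and bile acid synthesis, of which 0 rose and 0 fell (median 0.07). Cyp27a1 rose without KO replicate 2 (adjusted p = 0.0233) and with the deposit block (adjusted p = 0.0447).

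Nr1i3 encodes CAR, the receptor best known for inducing Cyp2b10 in the liver. Its probe set was dim in all arrays, at 25.5, 31.6 and 31.6 in wild type and 26.3, 29, 21.3 and 26 in KO, and was not tested. Nr1i2, which encodes the related receptor PXR, read 53.9 to 107 in wild type and 79.5 to 114 in KO. Yet Cyp2b10 read 557, 131 and 128 in wild type and 10649.5, 4080.1, 7216 and 9515 in KO, a 30.1-fold rise (log2 4.91 ± 0.44, adjusted p = 0.00274) seen on all 3 of its tested probe sets. Cyp2b9, a close relative, read 119, 98.7 and 118 in wild type and 287, 219.6, 233 and 199 in KO (log2 0.89 ± 0.19, adjusted p = 0.0451). Probe sets of such near-identical genes can pick up each other's transcripts. These were the 2 risers among 9 tested CAR and PXR targets (0 fell, median 0.14), and 7 others of the 16 measured were under the filter. Cyp3a11, a target of PXR, averaged 137.7 in KO and 163.9 in wild type (log2 -0.22, adjusted p = 0.795). Cyp2c29, a target of CAR, averaged 194.2 and 173 (adjusted p = 0.786).

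Vdr, the vitamin D receptor, read 27.5 to 134, and its 4 measured target genes were all under the filter. Nr1h4, which encodes the bile acid receptor FXR, read 12.1 to 66.6. Of 4 tested FXR and SHP targets 0 rose and 0 fell (median -0.08). Nr0b2, which encodes SHP, a repressor without a DNA-binding domain, read 44.4 to 94.8 in wild type and 55, 195, 60.7 and 58.7 in KO. Only KO replicate 2 was above the wild-type range. Liver receptor Hnf4a read 163 to 257 in wild type and 214 to 259 in KO (log2 0.15 ± 0.18), and Hnf4g 4.2 to 20.4 over all arrays. The other tested probe set of Hnf4a lay at -0.35 (adjusted p = 0.553), so no direction can be given for that gene. Liver transcripts differed widely between arrays of each genotype. The 9 measured hepatocyte markers, none at 0, summed to 11318, 3008 and 36098 in wild type and to 2851, 19679, 1716 and 18201 in KO, and 0 of 8 tested passed. The highest sum, in wild-type replicate 4, stood beside the lowest Nr0b2 signal and the next highest, in KO replicate 2, beside the highest, and the part of liver transcripts in these signals was not tested.

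Rora, which encodes RORα and is linked to clock and lipid genes, has 9 probe sets, and most of the tested ones were higher in KO. The brightest read 257, 256 and 259 in wild type and 374, 346, 322 and 389 in KO, 1.35-fold higher without overlap (log2 0.43 ± 0.14, adjusted p = 0.158). The next brightest, at 0.44 (adjusted p = 0.228), was also without overlap. The other tested probe sets overlapped between the groups, lay at 0.30, 0.21, 0.14, 0.99 and -0.04, and did not pass. One under the filter ran the other way, with 148.5, 136 and 136 in wild type and 28.1, 46.1, 73.3 and 32.5 in KO, and did not pass in a fit without the filter (log2 -1.21, adjusted p = 0.0917). Rorb read 81.2 to 111 in wild type and 68.3 to 177 in KO (log2 0.24 ± 0.27). Its other tested probe set read 44.5 to 85.2 in wild type and 86.2 to 164.5 in KO, without overlap (log2 0.55, adjusted p = 0.366).

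**Figure D3:**
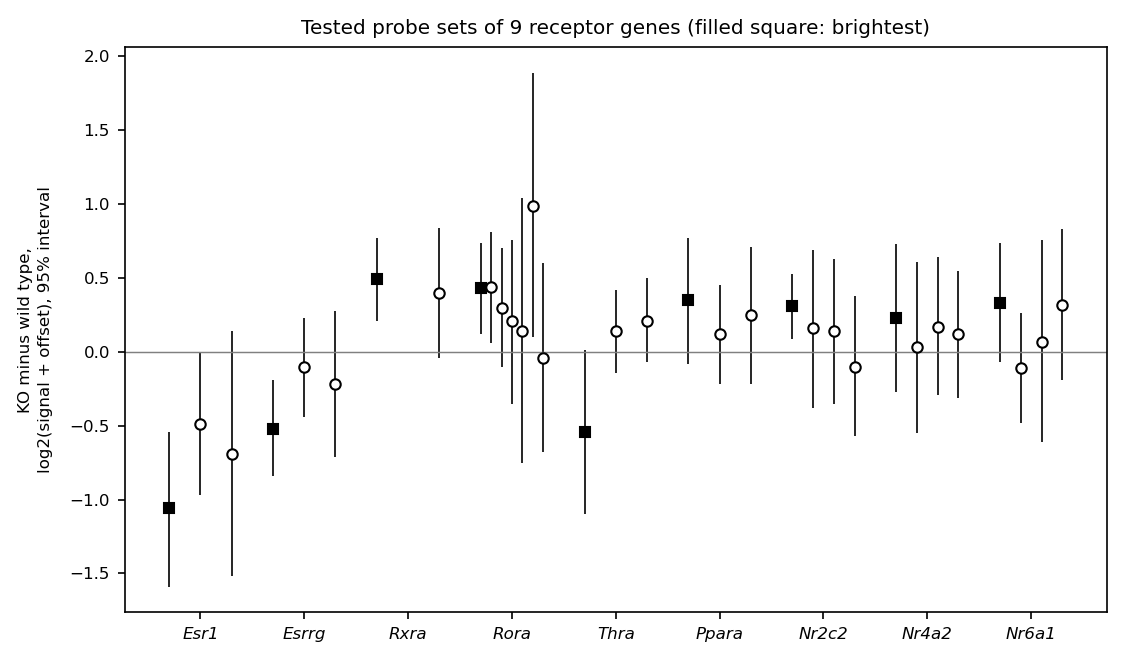
Difference of KO minus wild type, log2(signal + offset), with its 95% interval for each tested probe set of 9 receptor genes, the brightest as a filled square. The 3 probe sets of Esr1 lie below 0, while those of Thra lie on either side of it.

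None of the 5 tested orphan receptors of the NR2 group passed. Nr2c2, the testicular receptor 4 gene, read 2155, 2015 and 2056 in wild type and 2764, 2463, 2455 and 2680.0 in KO. The groups did not overlap, and the log2 difference was 0.31 ± 0.10 (adjusted p = 0.145). Its 3 other tested probe sets overlapped between the groups and lay at 0.16, 0.14 and -0.10. Nr2c1, its partner in heterodimers, was at 0.01 ± 0.17, and its other tested probe sets lay at -0.31, -0.22 and 0.36. Nr2f2, the COUP-TFII gene of vessels and mesenchyme, read 665, 602 and 661 in wild type and 717, 564, 618 and 544 in KO (log2 -0.08, interval -0.37 to 0.22). The other tested probe sets of Nr2f2 lay at 0.10 and 0.24. Nr2f6 read 1711, 1957 and 1749.9 in wild type and 1562, 1487, 1600.4 and 1737 in KO (log2 -0.17 ± 0.11). Nr2f1 was at 0.18 ± 0.28. Nr2e1, a receptor of neural stem cells, read 41.5 to 54.9 in wild type and 55 to 108 in KO and was under the filter.

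The NR4A receptors are immediate early genes, induced within a short time by cold, catecholamines or handling, and act without a classical ligand. Nr4a1 read 1006, 1734 and 1162 in wild type and 1288, 791, 815 and 1711 in KO. The spread within each group was larger than the difference between them (log2 -0.21 ± 0.27). Nr4a2 was at 0.23 ± 0.23. Nr4a3 read 76.7, 43.9 and 30 in wild type and 182, 82.6, 53.2 and 504 in KO. Its difference, the largest rise in size among the members (log2 1.21 ± 0.53, adjusted p = 0.29), rested on KO replicates 1 and 4. The other probe sets of Nr4a3 were under the filter and did not show this rise (log2 -0.12 and 0.14 in a fit without the filter). Each wild-type signal of Nr4a3 lay below that of Nr0b2, which was itself under the filter. Nr4a3 thus passed the filter only through its KO signals, so its rise is no support for a change. It also sets the upper end of the range given over the members. Of 16 other immediate early genes tested, 0 rose and 0 fell (median 0). Without KO replicate 2, Zfp36 and Btg2 rose and Jun and Egr1 fell. Of 7 tested NR4A targets 0 rose and 0 fell (median -0.34), and without that array Gys1 and Ucp3 fell. In the fit without KO replicate 2, 3.4% of all genes rose and 5.02% fell.

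Nr5a2, which encodes LRH-1, read 199.7, 247 and 212 in wild type and 109.8, 249, 137 and 137 in KO (log2 -0.45 ± 0.24, adjusted p = 0.39). KO replicate 2 was the highest array of all 7 and the other KO arrays were the lowest. Nr6a1, the germ cell nuclear factor, read 211, 211 and 168 in wild type and 306, 287, 214 and 222 in KO (log2 0.33 ± 0.18, adjusted p = 0.406), without overlap. Its 3 other tested probe sets ranged from -0.11 to 0.32. Nr5a1 and Nr0b1, which control steroid-making glands, were under the filter, at 24.5 to 115 and 2.5 to 32.2.

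Over 19 lists of genes linked to these receptors (targets, cofactors, ligand supply, chaperones), 10 of 174 tested genes changed, 8 higher and 2 lower in KO. That is 5.75%, beside 1.85% of all genes, with a median of 0.04 beside -0.01. The lists were chosen with earlier results of these data known, so the higher share is no test of them. Of the 10 changed genes, 5 came from 1 list of 9, the targets of the mineralocorticoid receptor (5 rose, 0 fell, median 0.80). They were Zbtb16, Fkbp5, Per1, Tsc22d3 and Usp2. Zbtb16, a transcriptional repressor, read 943, 1191 and 755 in wild type and 4410.0, 1905, 3002 and 4924 in KO (log2 1.79 ± 0.28, adjusted p = 0.0228). Fkbp5, a chaperone partner of steroid receptors, read 587, 575 and 564 against 3523, 1120.3, 2118 and 2232 (log2 1.80 ± 0.29, adjusted p = 0.0228). Each KO array was above each wild-type array in both. Usp2, a deubiquitinase, read 739, 951 and 608 against 1511, 1179.6, 1435 and 1258 (log2 0.80 ± 0.16, adjusted p = 0.0381). Per1, a clock gene, read 521, 653 and 417 against 1755, 1056, 1096 and 1816 (log2 1.36 ± 0.22, adjusted p = 0.0228). Tsc22d3, which encodes the glucocorticoid-induced leucine zipper, read 2398, 1777 and 2342 against 8225, 3227, 4383.0 and 6007 (log2 1.24 ± 0.26, adjusted p = 0.0451). In all 5, KO replicate 2 was the lowest of the KO arrays. These genes are also targets of the glucocorticoid receptor. The mineralocorticoid receptor targets Sgk1 (0.43, adjusted p = 0.48) and Scnn1a (0.24, adjusted p = 0.625) did not pass. The part of either receptor in these values was not tested.

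**Figure D4:**
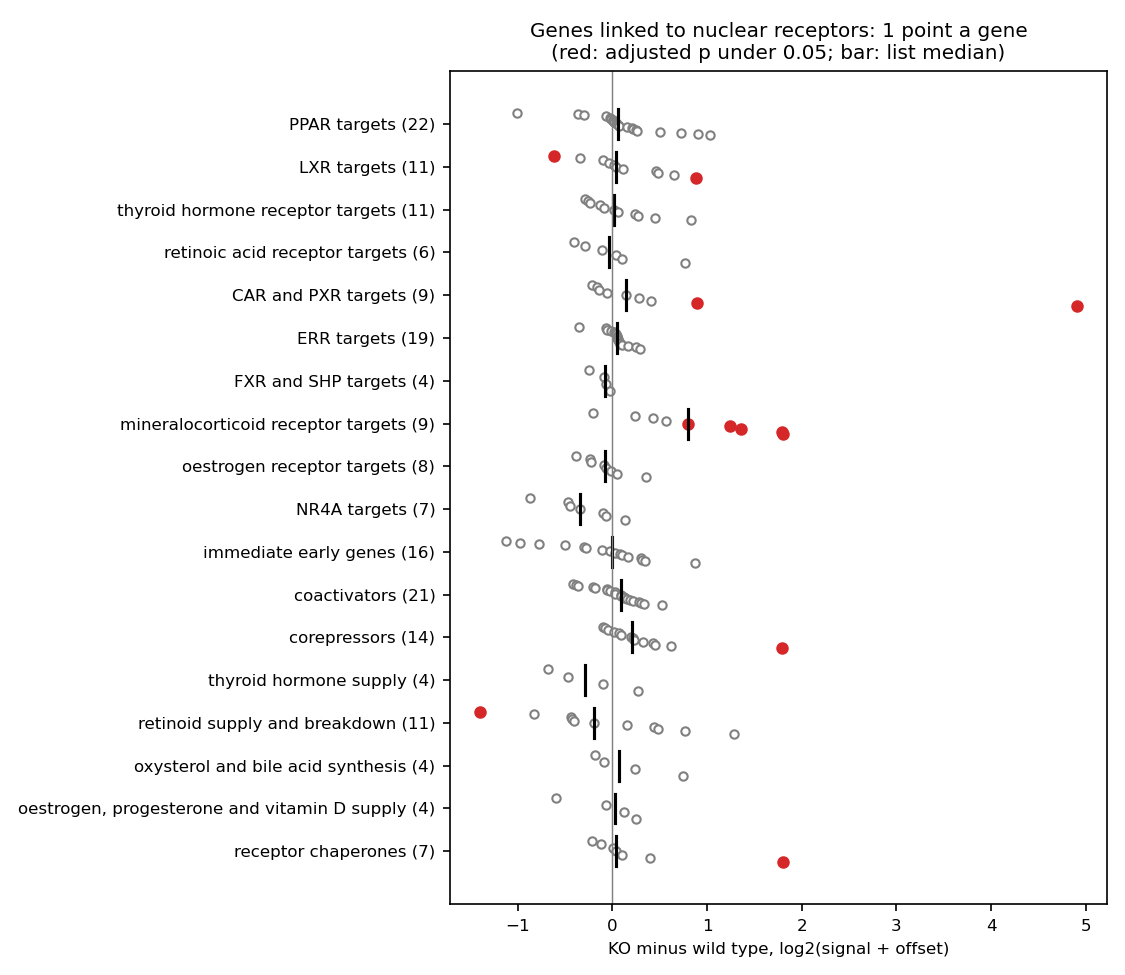
Difference of KO minus wild type, log2(signal + offset), of each tested gene in the lists of receptor targets, cofactors, ligand supply and chaperones, with the number tested in brackets, the list median as a bar and genes with an adjusted p under 0.05 in red. Cyp2b10 stands at 4.91, and 5 of 9 mineralocorticoid receptor targets are red.

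Cofactors of the receptors were listed too, and these lists overlap those of the targets. Zbtb16 and Fkbp5 below are the same genes as among the mineralocorticoid receptor targets above. Of 21 tested coactivators 0 rose and 0 fell (median 0.09), and Crebbp, a histone acetyltransferase, was at log2 0.52 (adjusted p = 0.113) and rose without KO replicate 2 (0.59, adjusted p = 0.0391). Of 14 tested corepressors, 1 rose, Zbtb16, and 0 fell (median 0.21), and without that array the deacetylase gene Sirt1 rose too (0.51, adjusted p = 0.0418). Of 7 tested receptor chaperones, 1 rose, Fkbp5, and 0 fell (median 0.04), and without KO replicate 2 Dnajb1 rose too (0.59, adjusted p = 0.0121). Of 8 tested oestrogen receptor targets 0 rose and 0 fell by their brightest probe set (median -0.08), and the chemokine gene Cxcl12 fell on another probe set (log2 -1.25, adjusted p = 0.0338). Of 4 tested genes of oestrogen, progesterone and vitamin D supply 0 rose and 0 fell (median 0.02).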

How the data were processed

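The authors deposited 1 table of signal intensities per probe set and array; the submitters' processing notes name GCOS 1.2, and each array's trimmed mean (2% cut at each end) was 500.003. Total RNA had been extracted with Trizol and labelled with biotin, per the labels' protocols. Of 45101 probe sets, 64 controls were left out. The probe table gave 1 symbol for 34945, several for 932 and none for 9160. Tests used log2(signal + 30.6), an offset at the 20th percentile that understates the change of dim probe sets. Probe sets with a mean under the 40th percentile were left out, leaving 27022. KO was compared with wild type in limma 3.58.1 (R 4.3.3; trend, two-sided, Benjamini-Hochberg, threshold 0.05), with no covariate. Intervals are 95%. The fit was tested on simulated data.

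Values in each array are given for members with a changed probe set, the 12 with the smallest p and a set of well-known receptors; likewise for related genes that passed. Other related genes were named from the 3 with the smallest p of a list or, outside that rule, after their values were seen. Members and lists were chosen with earlier results of these data known. P-values reflect only how these samples vary, which may be technical. Alternatives were quantile or median scaling, other offsets, filters, variance models, array weights, blocks, other probe sets and leaving out arrays; fits within 1 deposit block were added after seeing the data.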

Additional observations from a re-analysis of the deposited data

Results flagged for a closer look

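In 5 of 95 KO groups examined, 1 array stood far from the other 3 (gap over range above Dixon's 95% critical value). Chance gives about 1 in 20. Nr0b2 was high in KO replicate 2 (195 signal units, ratio 0.934). Klf9 was low there (5273, ratio 0.973), near its wild-type signals, and Fabp5 was high there (11706, ratio 0.835). Ltf, an oestrogen target also made by neutrophils, was high in KO replicate 4 (568, ratio 0.886). Hsd17b7 of steroid and sterol synthesis was high in KO replicate 1 (679, ratio 0.923).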

How the results depend on the processing

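The count of receptors that passed was 0 with all arrays. It was also 0 with quantile and median scaling, the lower offset, no filter, no trend, the robust model, the deposit block and the mean of all probe sets of a gene. The 0 within the first deposit block, where 1 wild-type array left each member at an adjusted p of 1, says nothing about stability. It was 1 (Esr1) with the offset at the 40th percentile, with the filter at the 60th percentile and within the second deposit block. It was 2 with array weights (Esr1, Rxra) and 3 with the replicate block (Esr1, Rxra, Thra). Leaving out 1 array gave 0 to 3, the 3 without KO replicate 2. Counts on any probe set of a receptor were the same numbers. No member reversed past the threshold. Of 668 single comparisons of 31 members, 11 came to pass and 50 changed sign with neither value past the threshold.

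Over all probe sets, 431 passed; 235 did with median scaling, 100 with no filter, 6 with no trend, 1312 with array weights, 2173 with the replicate block, 726 within the second deposit block, 0 within the first and 7 to 1986 without 1 array. Of the related genes, 10 passed; 6 did with median scaling, 2 with no filter, 1 with no trend, 21 with array weights, 35 with the replicate block, 17 with the deposit block and also within the second deposit block, 0 within the first and 1 to 30 without 1 array. Whether the replicate numbers pair the arrays was not settled. Correlations of deviations between arrays of the same number were 0.0567, 0.149 and 0.105, with no reference from arrays of unlike number. The fit with the replicate block also leaves out KO replicate 2, whose number no wild-type array has.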

Other observations

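Markers of other cells were looked at beside the receptors. Of 8 tested neutrophil markers, 1 rose, Chil3 (log2 2.09, adjusted p = 0.034), beside 1.14% of all genes. Of the 8, 3 rose without KO replicate 2, beside 3.4% of all genes. Of 9 tested macrophage and leukocyte markers 0 passed, and Lyz2 rose without that array. By the brightest probe set, 0 of 10 endothelial, 0 of 10 skeletal muscle, 0 of 6 neuronal and glial, 0 of 5 steroidogenic, 0 of 2 erythroid and 0 of 13 brown fat markers passed, beside 1.85% of all genes. The skeletal muscle markers summed to 28368 to 46782 signal units in wild type and 24071 to 43534 in KO.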
